A study of Mus musculus with 12 samples.

Results

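The metallothionein genes Mt1, Mt2 and Mt3 were examined in myelin purified from mouse brain, by their symbols in a table of normalized read counts for 21937 genes. These 3 genes are all the members, and each was read in all 12 libraries, 3 at each of the 4 ages P18, P75, 6 months and 24 months. They were chosen on the basis of values in these same libraries, among them the lower level of Mt2 at 6 months than at P75, so their levels, differences between ages and separation of ages are given as a description with no test. All mice were male c57Bl6/N with no genetic change or treatment, and age was the one variable that the labels give between the groups. Library numbers in the labels formed a separate run for each age, and what they stand for is not given. Differences in handling between the ages could thus not be told apart from age. The sample was a membrane preparation of whole brain in which density gradient centrifugation had concentrated myelin, and not sorted cells, so RNA of other brain cells could be present. In such a bulk fraction, fewer fragments of a cell type and less RNA in each of them cannot be told apart. By the study's methods the libraries of 6 months came from individual brains. Neither the labels nor the methods say this of the other ages, so there the spread between libraries may be in part technical.

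Metallothioneins are small proteins rich in cysteine, which bind zinc and copper through the sulphur atoms of those residues and buffer the free metal in the cytosol. Mt1 and Mt2 are made in most tissues and are induced by zinc, other metals, glucocorticoids and oxidative stress, with the zinc sensor Mtf1 binding metal response elements in their promoters. Mt3 is the brain form, first described as a growth inhibitory factor for neurons, and responds far less to metals. In the brain, astrocytes are a main site of Mt1 and Mt2 expression. Mt4, the remaining gene of the cluster, is the form of stratified epithelia.

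The 4 genes lie in 1 cluster on chromosome 8. On NCBIM37, the build of the files, the annotation places Mt4 at chr8:96661104-96662931, Mt3 at chr8:96676507-96678048, Mt2 at chr8:96696518-96697467 and Mt1 at chr8:96702989-96704225, each on the plus strand, over 43122 bases in all. Each is a protein-coding gene with a transcript of 3 exons, and no annotated gene overlaps any of them. The transcripts of 3 exons are 540 bases for Mt1, 556 for Mt2 and 538 for Mt3, so that these genes are among the shortest in the table. The longest run of identical bases between transcripts was 20 for Mt1 and Mt2, 27 for Mt1 and Mt3, and 20 for Mt2 and Mt3. The Mt2 transcript also aligned in part to a site on chromosome 12 outside annotated genes, with 88.5% matching bases over 384, and to a site on chromosome 3 within Pip5k1a, with 78.1% over 379. How the counting treated reads that fit several places is not given in the sources used here.

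The promoters are shown because the members moved together and are known for their metal response elements. The sequences, from RefSeq on GRCm38.p6, run from 250 bases before to 50 bases after the annotated start of transcription. They are written 5′ to 3′ on the plus strand. Capitals mark the core of the metal response element, searched as TGCACNC or TGCGCNC on both strands. The windows are chr8:94178839-94179138 for Mt1, chr8:94172368-94172667 for Mt2 and chr8:94152357-94152656 for Mt3.
Mt1: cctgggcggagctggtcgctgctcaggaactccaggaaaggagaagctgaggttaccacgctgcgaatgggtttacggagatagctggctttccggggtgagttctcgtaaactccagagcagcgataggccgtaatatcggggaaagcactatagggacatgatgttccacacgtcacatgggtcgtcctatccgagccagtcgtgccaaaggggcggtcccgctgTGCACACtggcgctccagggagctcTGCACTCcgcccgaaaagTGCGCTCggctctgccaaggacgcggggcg
Mt2: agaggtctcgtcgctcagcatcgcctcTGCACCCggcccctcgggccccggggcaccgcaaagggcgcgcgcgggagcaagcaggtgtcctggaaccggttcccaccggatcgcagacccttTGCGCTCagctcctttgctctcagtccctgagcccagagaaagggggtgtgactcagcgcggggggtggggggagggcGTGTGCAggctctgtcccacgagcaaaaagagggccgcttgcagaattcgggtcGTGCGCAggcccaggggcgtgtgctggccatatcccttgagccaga
Mt3: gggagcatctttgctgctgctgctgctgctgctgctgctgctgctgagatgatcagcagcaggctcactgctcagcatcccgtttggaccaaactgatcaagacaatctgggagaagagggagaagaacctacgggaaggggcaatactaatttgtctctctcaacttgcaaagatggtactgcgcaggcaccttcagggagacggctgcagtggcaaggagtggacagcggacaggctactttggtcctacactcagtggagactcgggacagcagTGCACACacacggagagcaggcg
The Mt1 window held 3 cores, the Mt2 window 4 and the Mt3 window 1. Of 32544 promoters of the same length, 25.9% held at least 1 core, 1.99% held at least 3 and 0.52% held at least 4. Counted from the annotated start, the core farthest upstream began at position -23 in Mt1 and at position -223 in Mt2. The core in Mt3 began at position 28, after the annotated start, as did those of Mt1 at 3 and 21 and that of Mt2 at 5. The core of the antioxidant response element, TGACNNNGC on both strands, was found once in the Mt2 window and not in the other two, against 12.4% of all promoters. The glucocorticoid receptor motif TGTTCT, searched on both strands, was in none of the 3 windows, against 18.9% of all promoters. The hypoxia core, ACGTG or GCGTG on both strands, occurred 2 times in Mt1, 2 times in Mt2 and 0 times in Mt3, and 44% of all promoters held at least 1. In Mt2, 1 hypoxia core overlapped a metal response element core in part. Such matches of letters were not tested as binding sites. The windows rest on an annotated start of each gene, which need not be the start used most in brain. Sequence outside the windows was not searched, so an absence or a count holds for the window alone.

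The depth was 20299052 to 27214385 reads on genes per library. Defining markers of myelin were abundant at every age, with 12 oligodendrocyte and myelin markers summing to between 201670 and 640412 normalized counts in a library. Markers of other cells were present too, with sums of 118166 to 151990 for 15 astrocyte markers, 176228 to 232352 for 11 neuron markers, 6544 to 20061 for 12 microglia markers, 842 to 1208 for 12 endothelial markers and 12865 to 47543 for 8 choroid plexus and ependymal markers. No gene of these marker lists was at 0 in any library. The values are not corrected for length, so the order of the members' levels is given per kilobase, and ratios of counts are used only to follow 2 genes across ages.

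Mt1 stood among the most abundant transcripts of young myelin. Its normalized read count was 20597, 21415 and 28832 in the 3 libraries of P18 and 15336, 21314 and 21798 in those of P75. At 6 months it was 3610, 5533 and 4760, and at 24 months 10454, 7553 and 7357. Every library of 6 months lay below every library of the other ages, and the libraries of P18 and P75 overlapped.

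Mt2 followed the same order of ages. It was 13221, 14290 and 18049 at P18 and 9643, 14124 and 13438 at P75. It was 1872, 2737 and 2396 at 6 months and 6017, 4313 and 3646 at 24 months. Again the 3 libraries of 6 months were the lowest and did not overlap with any other age, and P18 and P75 overlapped.

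Mt3, the brain form, differed between ages by less. It was 14682, 15253 and 15015 at P18 and 13512, 17252 and 17861 at P75. It was 4542, 6533 and 6764 at 6 months and 8693, 8351 and 8310 at 24 months. The libraries of 6 months were below all others, those of 24 months came next, and the range of P75 enclosed that of P18.

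**Figure D1:**
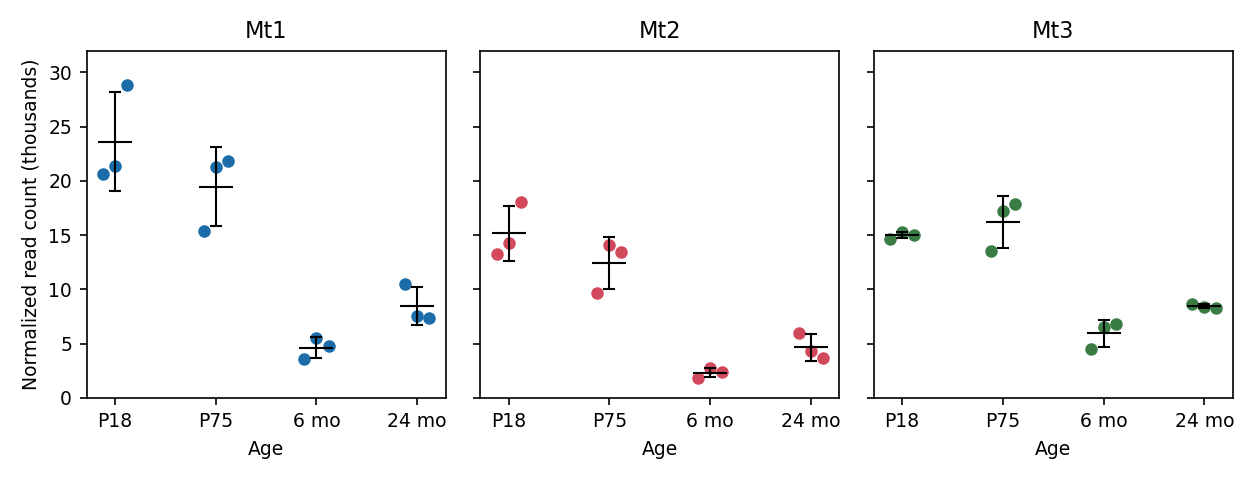
Normalized read counts of Mt1, Mt2 and Mt3, in units of 1000, by age. Each point is 1 library, the horizontal bar is the mean of 3 libraries and the error bar is 1 SD. In all 3 panels the libraries of 6 months are the lowest and those of 24 months lie between them and the libraries of P18 and P75.

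Mt4 was listed at 0 in 9 of the 12 libraries and at about 1 read in the other 3, once each at P18, P75 and 6 months. The cluster was thus read from Mt1, Mt2 and Mt3, and Mt4 was at the limit of detection.

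Per kilobase of the 3-exon transcript, Mt1 was the highest member at P18, with a mean of 43731 ± 8400 normalized counts per kilobase (SD, n = 3). Mt3 with 27850 ± 532 and Mt2 with 27314 ± 4560 were not apart beyond their spread. At P75 the order was Mt1 with 36079 ± 6660, Mt3 with 30127 ± 4380 and Mt2 with 22305 ± 4340, and the means of Mt1 and Mt3 differed by less than the SD of Mt1. At 6 months Mt3 led with 11052 ± 2270, ahead of Mt1 with 8582 ± 1790 and Mt2 with 4199 ± 783, and the ranges of Mt3 and Mt1 overlapped. Within each library, Mt1 was above Mt3 at P75 and below it at 6 months, as the ratios below show. At 24 months Mt3 with 15709 ± 391 and Mt1 with 15657 ± 3210 were not apart, and Mt2 was lower with 8379 ± 2200. Among 20939 genes ranked per kilobase of merged exons, Mt1 stood 18th at P18 and 156th at 6 months. Mt2 moved from 22nd at P18 to 248th at 6 months. Mt3 moved from 21st to 82nd. By 24 months the ranks were 91 for Mt1, 117 for Mt2 and 58 for Mt3. The members together took a mean of 0.221% of the reads on genes in P18 libraries, 0.214% in P75 libraries, 0.0567% in those of 6 months and 0.0924% in those of 24 months.

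Between P18 and P75, when active myelination ends, the members differed little. On the scale of log2(normalized read count + 1), the later age minus the earlier was -0.28 for Mt1 with a standard error of 0.18, -0.30 for Mt2 with 0.19 and 0.10 for Mt3 with 0.14, from a fit by limma across 14634 genes. The 2 ages overlapped for 3 of the 3 members, whereas 47.7% of all tested genes showed no overlap in one direction or the other. Of all tested genes, 25.9% rose and 22.9% fell at this step at an adjusted p under 0.1. With the libraries scaled to the same total, the median of all genes at this step moved from 0.02 to 0.14, and the share of higher among called genes from 53% to 72.2%. The members were then at -0.15, -0.17 and 0.23, so their distance from the median of all genes was nearly as before.

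Between P75 and 6 months, the interval from young to mature myelin, all members were lower at the later age. The mean of Mt1 went from 19483 ± 3600 to 4634 ± 968 normalized counts (SD, n = 3), 4.2-fold lower. That of Mt2 went from 12402 ± 2410 to 2335 ± 436, 5.31-fold lower, and that of Mt3 from 16209 ± 2350 to 5946 ± 1220, 2.73-fold lower. The log2 differences were -2.08 (standard error 0.18), -2.41 (0.19) and -1.46 (0.14), while the median over all tested genes was near 0. Counted from the lowest difference of 14634 genes, Mt2 was number 6, Mt1 number 14 and Mt3 number 104. In 3 of 3 members every library of 6 months was below every library of P75, which held for 30.9% of all tested genes. At this step 31.2% of all tested genes rose and 29.4% fell. These contrasts were in view when the members were chosen, so the counts are read for nothing further.

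Between 6 and 24 months the members were higher at the later age. Mt1 went from 4634 ± 968 to 8455 ± 1730 normalized counts, 1.82-fold higher. Mt2 went from 2335 ± 436 to 4659 ± 1220 and Mt3 from 5946 ± 1220 to 8451 ± 210, 1.42-fold higher. The log2 differences were 0.87 (standard error 0.18) for Mt1, 0.98 (0.19) for Mt2 and 0.53 (0.14) for Mt3. Every library of 24 months was above every library of 6 months for 3 of 3 members, and the same held for 23.2% of all tested genes. At this step 16.6% of all tested genes rose and 12.7% fell, and 56.8% of the called genes were higher at 24 months, against 46.3% with the libraries scaled to the same total. The members were still below the level of P75. At 24 months Mt1 was at 43.4% of its mean at P75, Mt2 at 37.6% and Mt3 at 52.1%, with no overlap between the 2 ages for any of them.

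Transcript length moved with both of these steps. For 143 tested genes with merged exons under 600 bases the median log2 difference from P75 to 6 months was -0.88, for 164 genes of 600 to under 800 bases -0.78, and for 235 genes of 800 to under 1000 bases -0.65. It was 0.12 for 6516 genes of 4000 bases or more. From 6 to 24 months the same classes ran the other way, from 0.46 under 600 bases to -0.04 at 4000 or more. Mt2 and Mt3 fall in the shortest class, and Mt1, whose 2 annotated transcripts merge to 753 bases, in the next. Merged exons span every annotated transcript, so for Mt1 and for other genes they can be longer than any single transcript. In the shortest class, 1 gene was lower than Mt2 and 14 were lower than Mt3 at 6 months against P75. In the class of Mt1, 1 of 164 genes was lower than Mt1. Single libraries carried this as well. Genes under 800 bases had a median deviation of -0.72 from their mean over all libraries in replicate 1 of 6 months, against -0.38 and -0.28 in replicates 2 and 3, and of 0.19 in replicate 1 of P75, against 0.32 and 0.45.

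With the median of each of 20 length classes removed from each library, an alternative chosen after the data were seen, the members were still lower at 6 months than at P75, by less. The log2 difference was -1.43 for Mt1, a 2.69-fold lower level, -1.76 for Mt2, 3.38-fold lower, and -0.81 for Mt3, 1.75-fold lower. Of 14272 genes with a length, 0.511% then had a lower value than Mt1, 0.168% a lower value than Mt2 and 4.81% a lower value than Mt3. From 6 to 24 months the differences became 0.57 for Mt1, 0.69 for Mt2 and 0.23 for Mt3. From P18 to P75 they stayed at -0.27, -0.28 and 0.12. All 3 members lay in 1 of these 20 classes, which was wider than the class under 600 bases described above. Any shift of the shortest genes beyond the median of that shared class was thus not removed. The same removal by GC content left the step from P75 to 6 months at -2.11, -2.48 and -1.51. Whether the length pattern arose in the tissue, in the RNA or in the libraries was not tested.

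**Figure D2:**
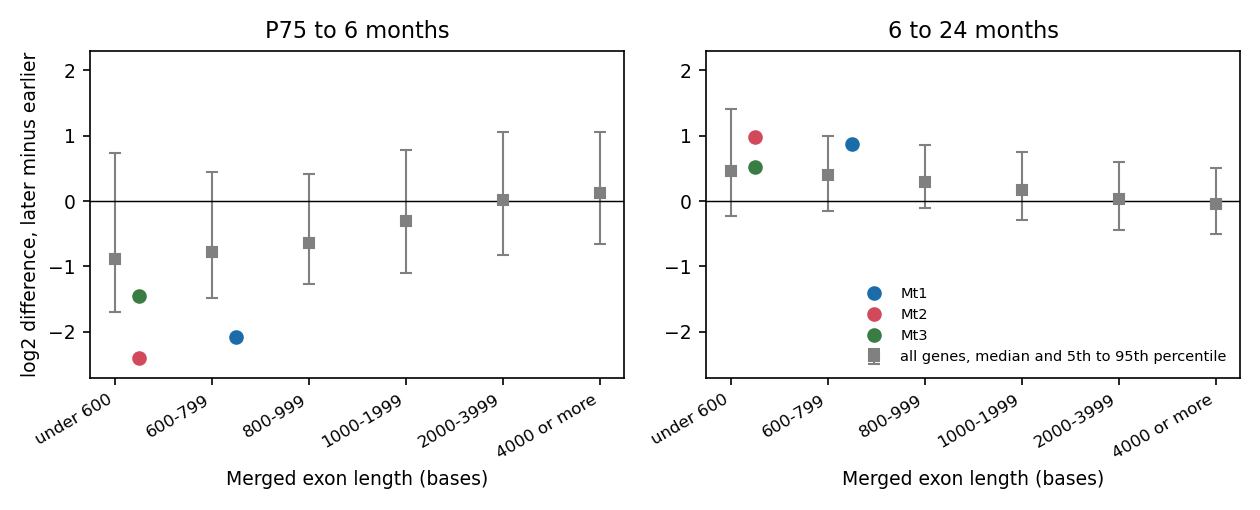
Difference in log2(normalized read count + 1) between ages by merged exon length in bases, for P75 to 6 months on the left and 6 to 24 months on the right. Grey squares are the median of all tested genes of a length class with the 5th to 95th percentile as bars, and coloured points are the members. On the left the medians run from -0.88 in the shortest class to 0.12 in the longest, and Mt1 and Mt2 lie below the bar of their class while Mt3 lies inside it.

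The members also differed between ages relative to each other, which no scaling of a library can alter. The ratio of Mt1 to Mt2 counts was 1.56, 1.5 and 1.6 in the libraries of P18 and 1.59, 1.51 and 1.62 at P75. It was 1.93, 2.02 and 1.99 at 6 months and 1.74, 1.75 and 2.02 at 24 months. The 6 libraries of the older ages were all above the 6 libraries of the younger ages. On the log2 scale the mean went from 0.65 ± 0.05 at P75 to 0.99 ± 0.03 at 6 months (SD, n = 3).

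Mt3 kept more of its level than Mt1 and Mt2 did. The ratio of Mt1 to Mt3 was 1.4, 1.4 and 1.92 at P18 and 1.13, 1.24 and 1.22 at P75. It was 0.795, 0.847 and 0.704 at 6 months and 1.2, 0.904 and 0.885 at 24 months. The ratio, of transcripts of 540 and 538 bases, was thus above 1 in each of the 6 libraries of P18 and P75 and below 1 in each library of 6 months. The ratio of Mt2 to Mt3 was 0.714, 0.819 and 0.752 at P75 and 0.412, 0.419 and 0.354 at 6 months, without overlap. At 24 months it was 0.692, 0.516 and 0.439, between the other 2 ages and below P75 in every library. At P18 it was 0.9, 0.937 and 1.2.

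**Figure D3:**
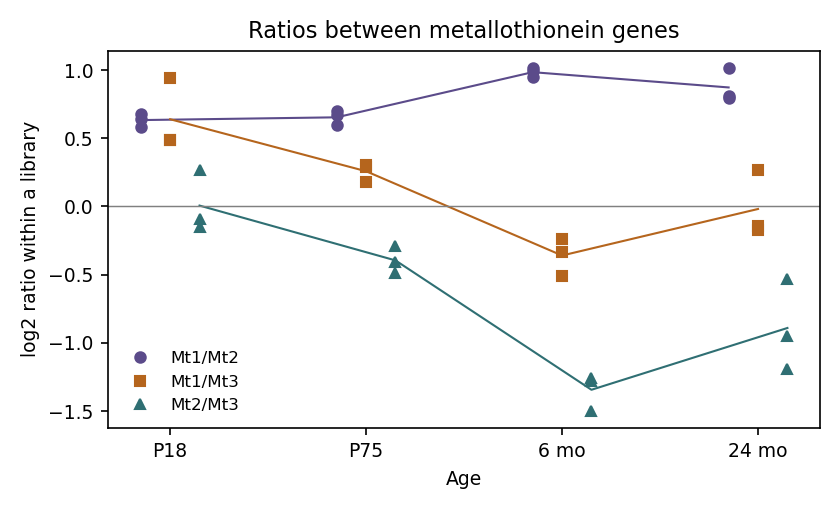
Ratios of normalized read counts between metallothionein genes within a library, as log2, by age. Each point is 1 library and lines join the means of 3 libraries. Mt1 to Mt2 is higher at 6 and 24 months than at P18 and P75, and Mt2 to Mt3 reaches its lowest values, from -1.26 to -1.50, at 6 months.

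Libraries of the same age differed in metallothionein level, and there Mt1 and Mt2 went together. Each library was set against the mean of its own age, so differences between ages do not enter these deviations. The members were chosen on values of these same libraries, so the permutation p-values below may not be independent of that choice. In replicate 1 of 6 months the deviation was -0.34 for Mt1, -0.30 for Mt2 and -0.37 for Mt3 on the log2 scale. In replicate 1 of P75 it was -0.33, -0.34 and -0.25. In replicate 1 of 24 months Mt1 and Mt2 were above their age mean by 0.33 and 0.40, and Mt3 by 0.04. In replicate 3 of P18 they were above it by 0.31 and 0.26, and Mt3 was at 0.00.

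Over the 12 libraries the deviations of Mt1 and Mt2 had Pearson's r = 0.97 and Spearman's rho = 0.972, both with exact permutation p = 0.0015, two-sided with libraries exchanged within ages, or 0.0046 after Benjamini-Hochberg adjustment over 3 pairs. The deviations had the same sign in 12 of 12 libraries, and r was 0.96 without the 2 libraries farthest from the median. For Mt1 and Mt3, r was 0.735 with exact permutation p = 0.019 and rho was 0.748 with p = 0.012, or 0.021 and 0.014 adjusted, with the same sign in 11 of 12 libraries and r = 0.876 without the 2 farthest libraries. For Mt2 and Mt3, r was 0.685 with exact permutation p = 0.021 and rho was 0.713 with p = 0.014, or 0.021 and 0.014 adjusted, with the same sign in 11 of 12 libraries and r = 0.68 without the 2 farthest.

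For comparison, 0% of the 14633 other genes had a higher r within ages with Mt1 or with Mt2 than these had with each other. For the pair of Mt1 and Mt3, 2.99% of genes had a higher r with Mt1 and 3.81% with Mt3, and for Mt2 and Mt3, 4.11% had a higher r with Mt2 and 5.34% with Mt3. C1qbp reached 0.934 with Mt1, and Ndufb7 and Nme2 reached 0.975 and 0.981 with Mt3.

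All 3 members were low in replicate 1 of both P75 and 6 months, and the test above exchanged libraries of each age independently. With libraries of the same number at these ages exchanged as pairs, a replicate block added after the data were seen, the exact permutation p was 0.0046 for Mt1 and Mt2, the smallest that 216 arrangements allow, and 0.06 for each pair with Mt3. The relation of Mt1 and Mt2 held after the removal of length classes, with r = 0.955 and exact permutation p = 0.0023. Those with Mt3 passed 0.05 no longer, with r = 0.523 and exact permutation p = 0.066 for Mt1, and r = 0.442 and p = 0.15 for Mt2. After the removal of GC classes, r was 0.962 for Mt1 and Mt2, 0.671 for Mt1 and Mt3 with exact permutation p = 0.065, and 0.671 for Mt2 and Mt3 with p = 0.044. Without replicate 1 of P75, replicate 1 of 6 months or replicate 1 of 24 months, neither pair with Mt3 passed 0.05, with r = 0.637, 0.64 and 0.796 for Mt1 and 0.565, 0.631 and 0.78 for Mt2.

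**Figure D4:**
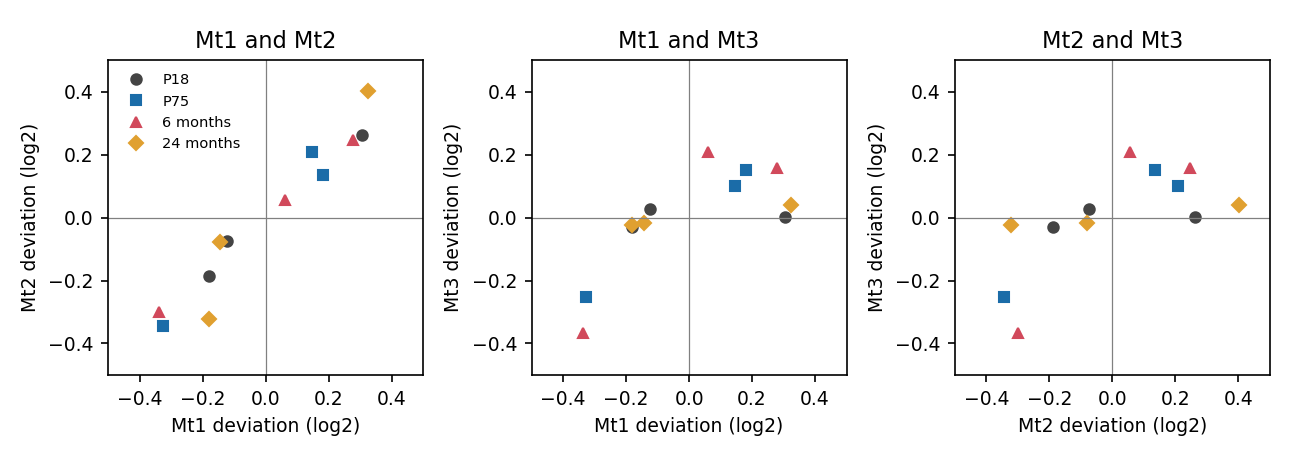
Deviation of each library from the mean of its age, on log2(normalized read count + 1), for the 3 pairs of metallothionein genes. Each point is 1 library and its shape gives the age. Mt1 and Mt2 lie close to 1 line with r = 0.97, while Mt3 is almost flat across the libraries of P18 and 24 months.

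Genes were also ranked by how closely their level followed each member over the 12 libraries, by Pearson's r on log2(normalized read count + 1), given as a description. Mt2 was closest to Mt1 of 14633 genes, and Mt1 closest to Mt2, with r = 0.998. Mt3 stood at rank 93 for Mt1 with r = 0.971 and at rank 99 for Mt2 with r = 0.97. Such values were common, since 6.59% of genes had r over 0.9 with Mt1, 6.79% with Mt2 and 6.27% with Mt3. After Mt2, the genes most like Mt1 were Polr2j, a subunit of RNA polymerase II, Hmgn3, a nucleosome-binding protein, and Mrps36, each with r = 0.986, and then Snrpb2, Pomp, C1qbp, Pdcd2l, Snhg10 and Ndufab1 down to 0.983. For Mt2 they were Hmgn3 and Mrps36 with r = 0.988, Hmgb1, the proteasome subunit gene Psma3, the cytokine gene Il18, the respiratory chain gene Uqcrb, Mrpl51, Pomp and Polr2j, down to 0.983. For Mt3 they were Ndufb7, a subunit of respiratory complex I, with r = 0.997, Nme2, Robld3 and Mrps21 with 0.996, then Ndufc1, Atp5h, Polr2f, Chchd2, Ccdc56 and the ATP synthase subunit gene Atp5l, down to 0.992. The 10 genes nearest to Mt1 and to Mt2 had 4 in common, and neither list of 10 shared a gene with that of Mt3. Between P75 and 6 months the log2 difference was -0.84 for Pomp, -1.04 for Polr2j, -1.08 for Ndufb7 and -1.15 for Atp5l, and -1.52 for Snhg10, a noncoding RNA whose difference was larger than that of Mt3. They were short as well, with a median of 1315 bases for the 21 of 24 with an annotated length, against 3737.5 over all tested genes.

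The transcription factors known to act on metallothionein promoters moved in both directions. Of 9 such genes, 1 rose and 5 fell from P18 to P75, 2 rose and 3 fell from P75 to 6 months, and 1 rose and 2 fell from 6 to 24 months, by limma at an adjusted p under 0.1. With the libraries scaled to the same total, 1 rather than 5 fell at the first step. Mtf1, the zinc sensor, went from 595 ± 19.8 normalized counts at P75 to 496 ± 17.3 at 6 months (SD, n = 3), a fall of 1.2-fold with an adjusted p of 0.019 by limma. It had a mean of 463 ± 17.8 at 24 months, with an adjusted p of 0.45 for that step. Nr3c1, the glucocorticoid receptor, was at 2524 ± 111 at P75 and 2196 ± 89.5 at 6 months, with an adjusted p of 0.1 by limma just above the threshold. Cebpb, a transcription factor of the acute phase response, fell from 199 ± 19.0 to 66.4 ± 7.69 between P75 and 6 months, with a log2 difference of -1.57, and rose to 112 ± 3.9 at 24 months, with adjusted p = 6.4e-06 and 0.013 by limma. Stat3 and Hif1a rose from P75 to 6 months, by 0.42 and 0.41 on the log2 scale, and Usf1 fell by 0.42.

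Most zinc importers rose at the first 2 steps, the second of which was the one where the metallothioneins were lower. Of 14 genes of the Slc39 family, which brings zinc into the cytosol, 10 rose and 0 fell from P18 to P75, 10 rose and 1 fell from P75 to 6 months, and 4 rose and 0 fell from 6 to 24 months, with median log2 differences of 0.5, 0.4 and 0.16. At the last step 2 were called without any one library of 6 months. For all tested genes those medians were close to 0. From P75 to 6 months, Slc39a2 rose by 0.89, Slc39a6 by 0.66 and Slc39a11 by 0.65 on the log2 scale, and Slc39a5, at a low level of 24.7 and 10.6 normalized counts, fell by 1.15. The Slc30 family takes zinc out of the cytosol. Of its 8 tested genes, 5 rose and 0 fell, then 4 rose and 2 fell, and then 2 rose and 0 fell. At the last step 1 was called without replicate 2 of 6 months or replicates 2 or 3 of 24 months. Scaling the libraries to the same total gave 8 risen and 0 fallen, then 2 and 2, and then 1 and 0. Slc30a1, the exporter of the cell membrane and like Mt1 a target of Mtf1, went from 266 ± 49.3 at P18 to 377 ± 53.7 at P75, 551 ± 58.9 at 6 months and 635 ± 50.9 at 24 months. Its first 2 steps passed, with adjusted p = 0.0076 and 0.0033 by limma, and the third did not, with 0.3. At P75 to 6 months Slc30a1 was thus higher at the later age, with a log2 difference of 0.55, and Mt1 lower. Slc30a1, with merged exons of 5244 bases, and the 14 importers, with 2141 to 10552, lay in the longer length classes. The medians of those classes at this step were 0.01 and 0.12, against -0.78 in the class of Mt1. The share of length in this contrast was not tested. Slc30a4 rose by 0.43 from P75 to 6 months, and Slc30a10 and Slc30a9 fell by 0.34 and 0.31.

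Copper genes were divided. Of 14 tested, 2 rose and 1 fell from P18 to P75, 5 rose and 6 fell from P75 to 6 months, and 5 rose and 0 fell from 6 to 24 months. The calls of the last step rested on single libraries, with 1 gene called without replicate 1 of 6 months, 2 without replicate 2 of 6 months and 3 without any one library of 24 months, and with 2 rising when the libraries were scaled to the same total. Cp, the ferroxidase ceruloplasmin, rose from 66.3 ± 7.72 to 227 ± 16.9 normalized counts between P75 and 6 months. Cox17 and Atox1, which carry copper to cytochrome oxidase and to the copper pumps, fell by 1.29 and 1.14 on the log2 scale at that step and rose by 0.56 and 0.37 at the next, as the metallothioneins were lower and then higher. Of the 6 copper genes that fell, 2 had merged exons under 1000 bases, among them Atox1 with 541. Merged exons can exceed the length of a single transcript, and those of Cox17 came to 5972 bases. The lengths of single transcripts of these genes were not examined.

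Genes raised by glucocorticoids moved in both directions, with more falling than rising at the first 2 steps and more rising from 6 to 24 months. Of 15, 3 rose and 6 fell from P18 to P75, 3 rose and 8 fell from P75 to 6 months with a median log2 difference of -0.5, and 7 rose and 1 fell from 6 to 24 months with a median of 0.29. Of these 8 calls, the number left was 4 without replicate 1 of 24 months, 5 without replicate 2 of 24 months and 5 without replicate 1 of 6 months. Hif3a fell from 137 ± 7.49 normalized counts at P75 to 26.1 ± 3.27 at 6 months, a log2 difference of -2.35, and rose to 71.3 ± 33.5 at 24 months. Plin4, a lipid droplet protein, and Sult1a1, a sulfotransferase, fell by 1.46 and 1.39 and then rose by 1.73 and 1.14. Arrdc2 fell by 1.64 from P75 to 6 months. Klf9, a transcription factor, ran the other way at both steps, as it rose from 457 ± 141 at P75 to 1167 ± 120 at 6 months, with adjusted p = 3.3e-06 by limma, and fell to 693 ± 83.8 at 24 months. Zbtb16 rose by 0.77 on the log2 scale from P75 to 6 months as well. None of the 8 genes that fell had merged exons under 1000 bases. Among them Sult1a1, with 1507, lay in the class of 1000 to under 2000 bases, whose median at that step was -0.30. The share of length in these differences was not tested. Among all tested genes, 25.9%, 31.2% and 16.6% rose and 22.9%, 29.4% and 12.7% fell at the consecutive steps. No test compared this list with other genes.

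Oxidative stress genes driven by Nfe2l2 were mixed, with 1 rising and 8 falling of 12 from P18 to P75, 4 rising and 6 falling from P75 to 6 months, and 0 rising and 3 falling from 6 to 24 months. With the libraries scaled to the same total, 1 rose and 1 fell at the first step. At the last step 1 was called without replicate 2 of 24 months and 5 without replicate 3 of P18. Gclc, which makes glutathione, rose by 1.36 on the log2 scale from P75 to 6 months and Slc7a11, the cystine transporter, by 1.12, while the thioredoxin gene Txn1 fell by 1.04. Among 12 genes that rise in low oxygen, 4 rose and 4 fell, then 3 rose and 5 fell, and then 3 rose and 1 fell. Of the 8 called at each of the first 2 steps, 5 were called without replicate 1 of P18 or replicate 2 of P75, and without replicate 1 of 6 months. Ankrd37 fell by 1.06 and Pgk1 rose by 0.77 from P75 to 6 months.

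**Figure D5:**
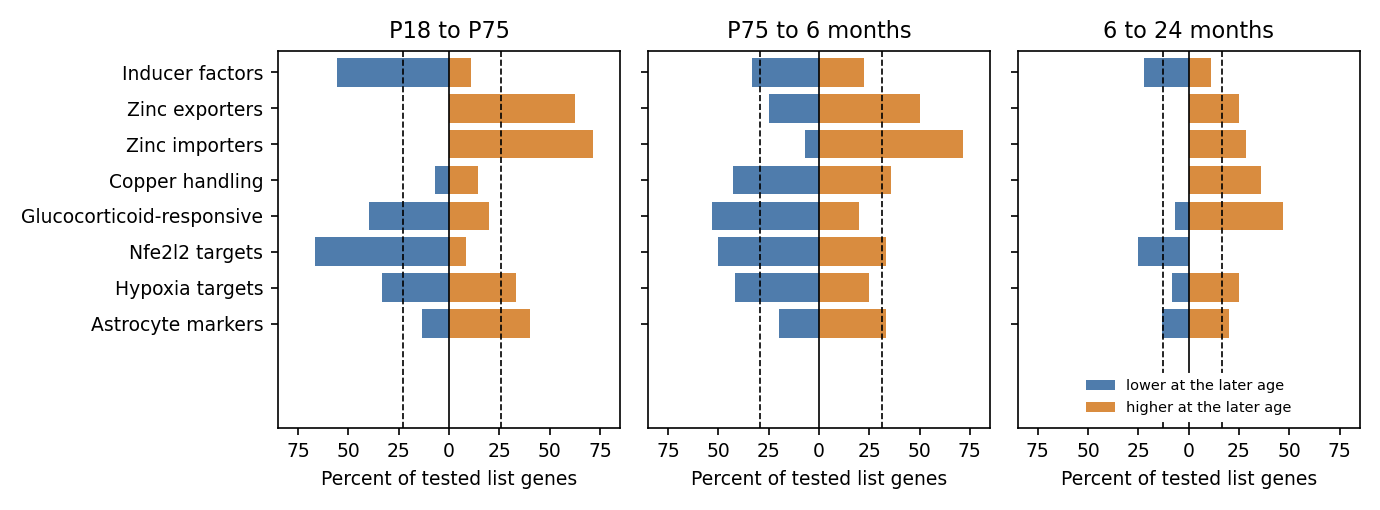
Percent of the tested genes of each list that were called higher (right, orange) or lower (left, blue) at the later age of 3 consecutive steps, by limma at an adjusted p under 0.1. Dashed lines give the percent of all tested genes called in each direction. Zinc importers exceed the line for higher genes at all 3 steps. Glucocorticoid-responsive, copper and hypoxia genes exceed the line for lower genes from P75 to 6 months and that for higher genes from 6 to 24 months. Glucocorticoid-responsive and hypoxia genes also exceed the line for lower genes from P18 to P75.

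Astrocyte markers, which mark a main source of metallothionein RNA in brain, moved in both directions. Of 15, 6 rose and 2 fell from P18 to P75, 5 rose and 3 fell from P75 to 6 months, and 3 rose and 2 fell from 6 to 24 months, with a median log2 difference of 0.06 at the middle step. There 5 rather than 8 were called without replicate 2 of P75 or replicate 1 of 6 months, and at the last step 2 or 3 rather than 5 without any one library of 6 months or replicates 1 or 2 of 24 months. The sum of the 15 was 136431 to 141392 normalized counts at P75, 135108 to 151990 at 6 months and 133705 to 147017 at 24 months. Set against that sum to follow the ages, and not as a comparison of levels between genes, the Mt1 count was 11.2% to 15.6% of it at P75, 2.42% to 3.64% at 6 months and 5% to 7.82% at 24 months. Mt2 was 7.07% to 10.4%, 1.26% to 1.8% and 2.48% to 4.5% of it at these ages, and Mt3 9.9% to 12.6%, 3.05% to 5.01% and 5.65% to 6.5%. The 15 markers are longer than the members, with merged exons of 1553 to 13153 bases, so the length pattern enters these percentages too. Aqp4, the water channel of astrocyte endfeet, was at 5618 ± 925 at P75 and 6779 ± 372 at 6 months, with an adjusted p of 0.36 by limma. Gfap, the astrocyte intermediate filament, was at 5729 ± 296 and 5858 ± 1307 with an adjusted p of 0.97, and rose to 9083 ± 761 at 24 months, with a log2 difference of 0.65 and an adjusted p of 0.032 by limma. Slc1a3 and Clu rose by 0.83 and 0.69 on the log2 scale from P75 to 6 months, and Ntsr2 fell by 0.71. The other marker lists at this step gave 3 risen and 2 fallen of 12 endothelial genes, 7 and 1 of 12 microglia genes, 7 and 3 of 11 neuron genes, 4 and 1 of 8 choroid plexus and ependymal genes, and 3 and 1 of 12 oligodendrocyte and myelin genes. The last count was 2 in all without replicate 2 of P75, of 6 months or of 24 months, and 7 without replicate 3 of P18.

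The genes beside the cluster moved in both directions as well. The nearest protein-coding genes were Bbs2, 38393 bases before Mt4, and Nup93, 34272 bases after Mt1. Of 9 tested neighbours, out of 5 on each side, 3 rose and 3 fell from P18 to P75, 2 rose and 1 fell from P75 to 6 months, and 2 rose and 2 fell from 6 to 24 months. From P75 to 6 months Bbs2 went from 702 ± 53.9 to 631 ± 5.19 normalized counts, with an adjusted p of 0.16 by limma, and Nup93 from 505 ± 36.5 to 468 ± 9.81, with 0.35. Nudt21, a cleavage factor of mRNA 3′ ends, fell by 0.60 on the log2 scale, and Herpud1, of the degradation pathway of the endoplasmic reticulum, rose by 0.38. Ogfod1, Gnao1, Cpne2 and Fam192a did not pass at that step, and Slc12a3 was under the minimum of 10 normalized counts.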

How the data were processed

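Myelin RNA of 12 libraries was sequenced, 3 per age, with ages and replicate numbers from the labels. The authors aligned reads to mm9 with TopHat, version 2.0.8 in the submitters' notes, counted reads per gene with HTSeq 0.5.4p1 and normalized for library size with DESeq. The deposited signal is that normalized read count, neither on a log scale nor per length. The handling of reads that match several places is not given in the sources used here. The recovered reads gave the depth, as low values were whole multiples of the value of 1 read within 0.011 normalized counts. No column was left unused.

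The members and gene lists were chosen with earlier results of these data known. Ages were compared in 1 fit over 12 libraries with limma 3.58.1 (trend, empirical Bayes, R 4.3.3) on log2(normalized read count + 1), for 14634 genes with a mean of at least 10, with Benjamini-Hochberg adjusted p under 0.1. This scale understates the differences of genes with few reads. The fit was tested on simulated data. edgeR 4.0.16 and DESeq2 1.42.0 on recovered reads were alternatives. Deviations from age means were correlated with an exact permutation test (Python 3.11.15, scipy 1.17.1), and transcripts were aligned with minimap2 2.31. Positions came from GENCODE vM1 on NCBIM37, in which 95.5% of symbols had 1 annotated gene. Lengths were available for 97.5% of tested genes and GC content for 96.7%, and promoter windows came from RefSeq on GRCm38.p6. Named genes were the members, Mt4, the 10 genes most correlated with each member, Mtf1, Slc30a1, Nr3c1, up to 4 called genes with the largest difference in each list and step, the neighbours, Aqp4 and Gfap. The values of some named genes are not reported here.

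The replicate numbers, which the labels do not tie to animals, were checked as pairs. Deviations of libraries with the same number had correlations of 0.161, 0.101 and 0.187 between P75 and 6 months, and of -0.213 to -0.03 at the other steps, so that a block was applied as an alternative.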

Additional observations from a re-analysis of the deposited data

How the results depend on the processing

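The direction of every member's difference was the same under each alternative run. With the replicate block, Mt2 from P75 to 6 months stayed at -2.41, and the genes called in the 7 metal and stress lists numbered 47, 62 and 27 at the consecutive steps, against 50, 62 and 29 without it. The block changed no other count of the lists together or of the neighbours by over 1.5 times. In the correlations within ages, exchanging P75 and 6 months as pairs left r at 0.735 for Mt1 and Mt3 and 0.685 for Mt2 and Mt3, with exact permutation p = 0.06 for both. Without single libraries, Mt1 from P75 to 6 months ranged from -2.24 to -1.91, Mt2 from -2.58 to -2.26 and Mt3 from -1.58 to -1.28. From 6 to 24 months they ranged from 0.70 to 1.01, 0.78 to 1.14 and 0.35 to 0.63. List genes called from 6 to 24 months ranged from 17 to 37 and fell to 17 without replicate 1 of 6 months, 19 without replicate 2 of 6 months and 18 without replicate 2 of 24 months. Neighbours called ranged from 3 to 5 from P75 to 6 months and from 2 to 6 from 6 to 24 months. The latter were 1 with the same total per library and 2 at an adjusted p under 0.05, against 4. The correlation within ages ranged from 0.637 to 0.825 for Mt1 and Mt3 and from 0.565 to 0.78 for Mt2 and Mt3.

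The length correction, added after the data were seen, moved the members most at the 2 later steps. From P75 to 6 months it gave -1.43 for Mt1, -1.76 for Mt2 and -0.81 for Mt3, and from 6 to 24 months 0.57 for Mt1 and 0.23 for Mt3, with correlations within ages of 0.523 for Mt1 and Mt3 and 0.442 for Mt2 and Mt3. The GC correction gave 0.671 for Mt1 and Mt3. The cause was not tested. The lowest value of a member rested on 2304 reads, so 3 libraries per age limit the precision more than depth does.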
